A study of Drosophila melanogaster with 30 samples.

Results

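The genes described here encode heterochromatin proteins and modifiers of position-effect variegation in Drosophila melanogaster: HP1 and its paralogs and partners, enzymes that write or remove histone H3 lysine 9 methylation, chromatin assembly factors, lamina proteins and proteins that bind satellite DNA. They were chosen by name, 37 in all, and 36 of them had a row among the 16868 genes counted; sov was not analysed here. RNA was measured in 30 libraries that form 15 groups of 2, and the design asked how an added Y chromosome changed RNA levels in each tissue. In female larval CNS, ovaries and female bodies, XXYohio and XXYcongo females, which carried a Y of the Yohio or the Ycongo strain, were compared with XX females. In testes and male bodies, XYYohio and XYYcongo males, which carried a further Y of that kind, were compared with XY males. The labels write the XX and XY genotypes with a caret that they do not explain. For all libraries they give rearing at 23 °C and a light cycle of 14 hours. Bodies, which the labels call whole bodies, and gonads came from adults 2 days old. The CNS came from third-instar larvae, so the CNS differs from the other tissues in stage as well as in kind. The replicates are called biological, with no statement of separate cultures, so the p-values measure only the spread between these libraries.

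Heterochromatin is the compacted part of the genome that holds satellite repeats and transposons, and in Drosophila the Y chromosome consists almost wholly of it. Methyltransferases place methyl groups on lysine 9 of histone H3, HP1a binds that mark, and further proteins, among them deacetylases, a SUMO ligase and assembly factors, help it spread or persist. Position-effect variegation is the mosaic silencing of a gene placed next to heterochromatin. Dominant suppressors, the Su(var) genes, and enhancers, the E(var) genes, were found by their effect on it, and an added Y chromosome is itself a classical suppressor of variegation.

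Total counts per library lay between 6026258 and 15363636, and a count of 0 in a library allowed a level of up to 3 counts. Levels are given in CPM, counts relative to the library total, scaled between libraries with TMM factors, which assume that most genes do not differ. Of the markers of the labelled tissues, the 8 neuroblast genes summed to 2049 to 3243 CPM in the CNS, the 13 eggshell genes to 5134 to 10858 CPM in ovaries, and the 22 spermatocyte and spermatid genes to 13641 to 23579 CPM in testes. The testis libraries also held 32549 to 52183 CPM of 9 accessory gland genes, more than the 5516 to 12928 CPM of male bodies. The part of accessory gland RNA in the testis values below was not tested. Whole bodies include the gonads: the eggshell genes summed to 1634 to 4763 CPM in female bodies. The spermatocyte and spermatid genes summed to 2486 to 9857 CPM in male bodies. Mitochondrially encoded genes took 5.21% to 33.5% of the counts in female bodies and 9.37% to 40.1% in male bodies, the highest in XYYcongo replicate 2, against at most 12.8% in the other tissues. In whole tissues, fewer cells of a type and less RNA per cell cannot be told apart.

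Heterochromatin genes stood highest in the CNS or in the ovary. The mean over 6 libraries was highest in ovaries for 17 of the 36 genes, in the CNS for 16, in testes for HP6 and Lhr, in female bodies for Su(var)205 and in male bodies for none. Among all 13010 genes with at least 300 counts, 20.2% had their highest mean in ovaries, 18.4% in the CNS, 32.2% in testes and 26.4% in male bodies. The lowest mean fell in male bodies for 22 of the 36 genes, against 8.99% of all genes. Summed over the 36 genes, the libraries held 4602 to 5378 CPM in the CNS, 4908 to 6082 CPM in ovaries, 2421 to 2803 CPM in testes, 2114 to 4119 CPM in female bodies and 1592 to 2120 CPM in male bodies. CNS and ovary libraries overlapped in this sum and lay above all others.

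**Figure D1:**
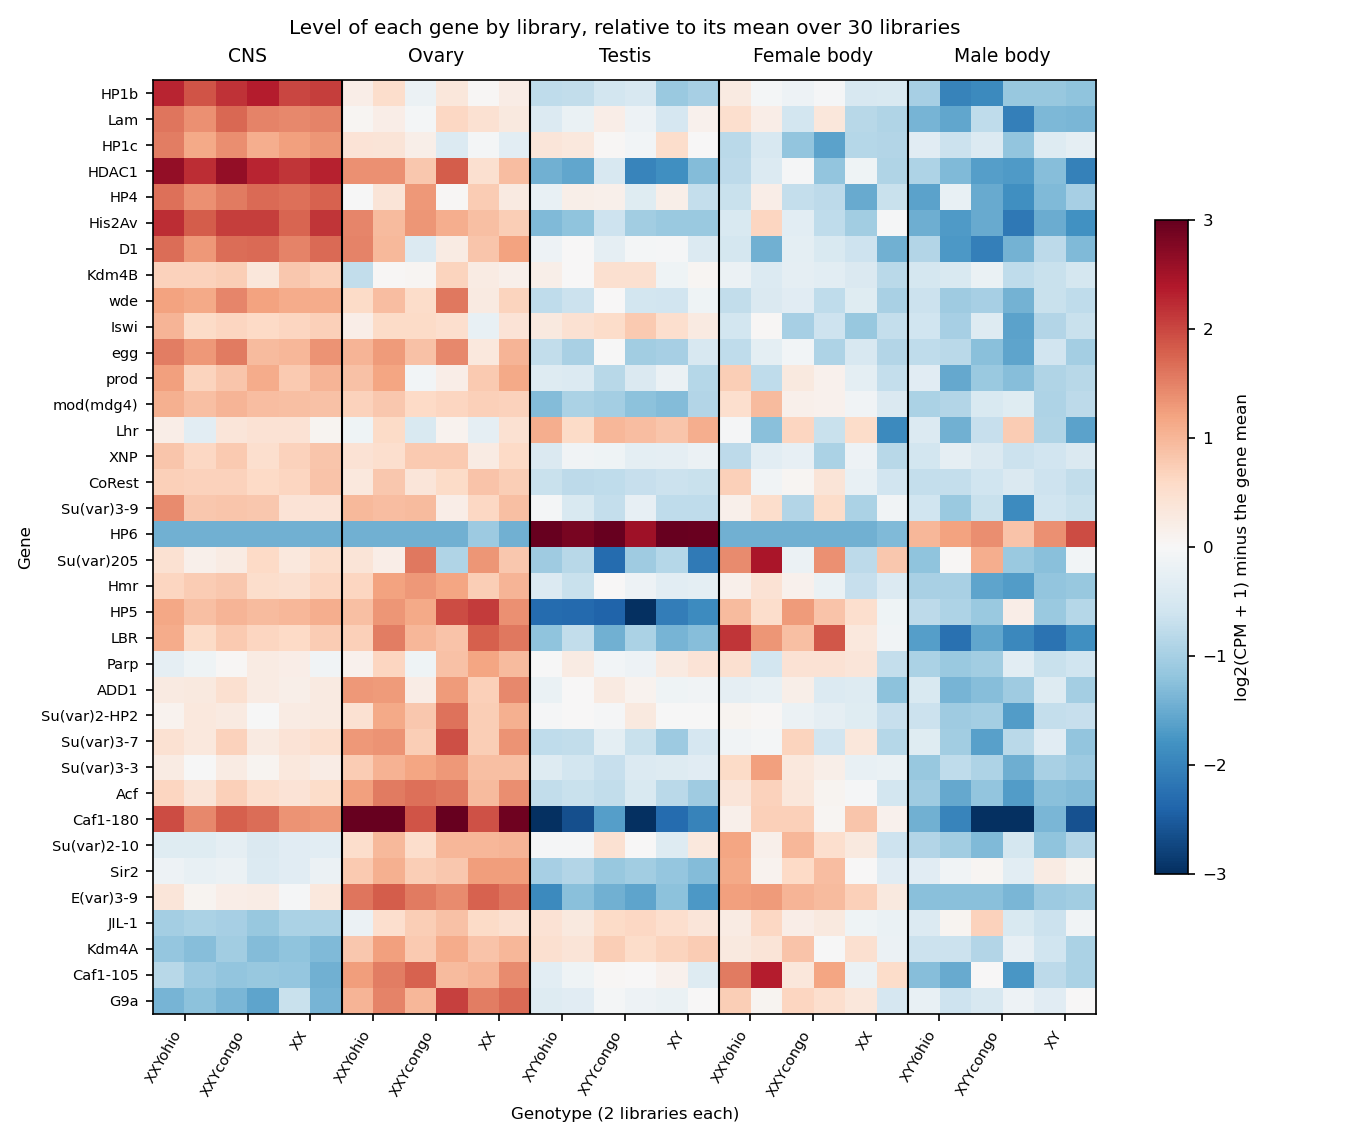
Level of each of the 36 genes (rows) in each of the 30 libraries (columns, grouped by tissue and genotype), as log2(CPM + 1) minus the mean of the gene over all libraries. Red stands for above and blue for below that mean; rows run from genes highest in the CNS relative to the ovary at the top (HP1b, Lam, HP1c) to the reverse at the bottom (Caf1-105, G9a), and the columns differ between tissues far more than between genotypes.

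The tissues were compared with edgeR's quasi-likelihood test in a fit of all 30 libraries, and a gene was called at a Benjamini-Hochberg adjusted p under 0.05 over the 14384 genes tested. In ovaries compared with female bodies, 27 of the 36 genes were higher and 0 lower, where 29.2% of all genes were higher and 26.4% lower. The number depends on the scaling: with RLE in place of TMM factors it was 16 higher and 0 lower, and the median of all genes moved by -0.13 on the log2 scale. In testes compared with male bodies, 22 were higher and 4 lower, where 36.7% of all genes were higher and 38.5% lower. When the control genotypes alone were compared, that count was 10 higher and 2 lower. Without the mitochondrially encoded genes it was 32 higher and 1 lower, with a median of all genes of 0.85, against -0.01 with them. The folds of single genes between testes and male bodies given below depend on the scaling in the same way.

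Between the sexes, the genes moved against the whole. In ovaries compared with testes, 28 of 36 were higher and 2 lower, where 29.6% of all genes were higher and 49.5% lower. Their median log2 difference was 1.28, and that of all genes -0.83. With RLE factors 24 were higher and 6 lower, with medians of 0.82 and -1.26. In female compared with male bodies, 26 were higher and 2 lower, where 13.6% of all genes were higher and 61.8% lower, with medians of 0.90 and -1.26. When the control genotypes alone were compared, this was 12 higher and 1 lower. With RLE factors 32 were higher and 1 lower in female bodies, with medians of 1.26 and -0.92. Without the mitochondrially encoded genes 35 were higher and 1 lower, with medians of 1.85 and -0.33. The size of differences between female and male bodies thus depends on the scaling. Whole bodies include the gonads, so the comparison of bodies is not separate from that of ovaries with testes. The larval CNS held more RNA of 21 genes and less of 7 than female bodies, where 31.7% of all genes were higher and 31.3% lower. Compared with ovaries, 8 of the 36 were higher in the CNS and 16 lower, where 29.0% of all genes were higher and 27.9% lower; with RLE factors the split was 13 and 13.

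Of HP1a and its paralogs HP1b and HP1c, HP1a had the largest share in every tissue, and HP1b and HP1c were raised in the CNS. HP1a itself is encoded by Su(var)205 (FBgn0003607, arm 2L). Its RNA ranged from 150 to 202 CPM in the CNS (median 176), from 71.5 to 405 CPM in ovaries (median 207) and from 26.2 to 74.6 CPM in testes (median 63.4). In female bodies it ranged from 77.5 to 740 CPM (median 291) and in male bodies from 55.7 to 285 CPM (median 94.1). Each tissue overlapped with the next in the order of means, from female body through ovary, CNS and male body to testis. Su(var)205 was called higher in ovaries than in testes (log2 difference 2.04 ± 0.45 SE, edgeR adjusted p = 0.000318).

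The RNA of Su(var)205 varied between libraries of the same tissue more than that of most genes. The SD over its 6 libraries came to 76.3% of the mean in female bodies, 73.4% in male bodies and 53.4% in ovaries, against medians over all genes above 10 CPM of 31.6%, 29.2% and 24.3%. In the CNS it was 11.8%, against a median of 13%. In ovaries, the 2 XXYcongo libraries held 405 and 71.5 CPM, the extremes of the 6. Which of them was kept decided the call: without XXYcongo replicate 1, Su(var)205 was lower than in XX ovaries (log2 -2.09, edgeR adjusted p = 0.00429), and without replicate 2 it was higher than in XXYohio ovaries (log2 1.35, adjusted p = 0.0384), while with both it was called in neither comparison. The libraries also differed in how levels moved with gene length: the slope of the log2 deviation per doubling of exon length was 0.002 and 0.145 in these 2 ovary libraries, and ranged over all ovary libraries from -0.176 to 0.145. Su(var)205 has 1109 bases of merged exons, and the part of gene length in its spread was not tested.

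HP1b (FBgn0030082, on the X), a paralog found in heterochromatin and euchromatin, ranged from 79.9 to 112 CPM in the CNS (median 95.4), from 18.5 to 30.8 CPM in ovaries (median 24.5) and from 9.18 to 14.9 CPM in testes (median 12.2). It ranged from 14.8 to 25.4 CPM in female bodies (median 19.5) and from 4.46 to 10.0 CPM in male bodies (median 8.77). Every CNS library lay above every library of the other tissues. The difference of the CNS from ovaries was 3.93-fold (log2 1.98 ± 0.19 SE, edgeR adjusted p = 9.85e-09) and that from female bodies 5.08-fold (log2 2.34 ± 0.20, adjusted p = 1.01e-09). HP1c (FBgn0039019, arm 3R), a mostly euchromatic paralog, ranged from 31.4 to 43.3 CPM in the CNS (median 35.9), from 10.4 to 19.3 CPM in ovaries (median 14.9) and from 4.03 to 9.84 CPM in female bodies (median 7.34). It was 2.48-fold higher in the CNS than in ovaries (log2 1.31 ± 0.19 SE, edgeR adjusted p = 3.81e-06) and 5.33-fold higher than in female bodies (log2 2.41 ± 0.20, adjusted p = 9.14e-10). Of its exon bases 16.2% overlap CG17141 on the opposite strand, and no strand setting of the counts is given in the sources used here. In female compared with male bodies HP1c had a log2 difference of -0.50, which was 0.45 without the mitochondrially encoded genes.

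Per kilobase of exon, Su(var)205 made up 62.0% of the summed level of these 3 paralogs in the CNS, 84.0% in ovaries, 65.0% in testes, 90.7% in female bodies and 84.4% in male bodies (means of 6 libraries). HP1b made up 23.5% in the CNS and 8.41% in ovaries, and HP1c 23.8% in testes and 7.57% in ovaries. Other family members were left out of these shares. One of them, HP6, had a mean of 41.4 CPM per kilobase in testes, against 49.9 for Su(var)205. Shares were compared with two-sided exact permutation tests of 6 against 6 libraries, for 6 genes and 4 pairs of tissues, 24 tests in all. The share of Su(var)205 differed between CNS and ovaries by -22.0 percentage points (exact p = 0.00216, the smallest such a test can give, and 0.00472 after Benjamini-Hochberg adjustment), that of HP1b by 15.1 points (exact p = 0.00216, adjusted 0.00472). Between ovaries and testes, the share of HP1c differed by -16.3 points (exact p = 0.00216, adjusted 0.00472), and that of HP1b by -2.71 points (exact p = 0.361). The level of HP1c itself overlapped between the gonads, with 13.3 to 20.8 CPM in testes and 10.4 to 19.3 CPM in ovaries. The mean of Su(var)205 was 207 CPM per kilobase in ovaries and 49.9 in testes, so the share of HP1c differed mainly through Su(var)205.

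**Figure D2:**
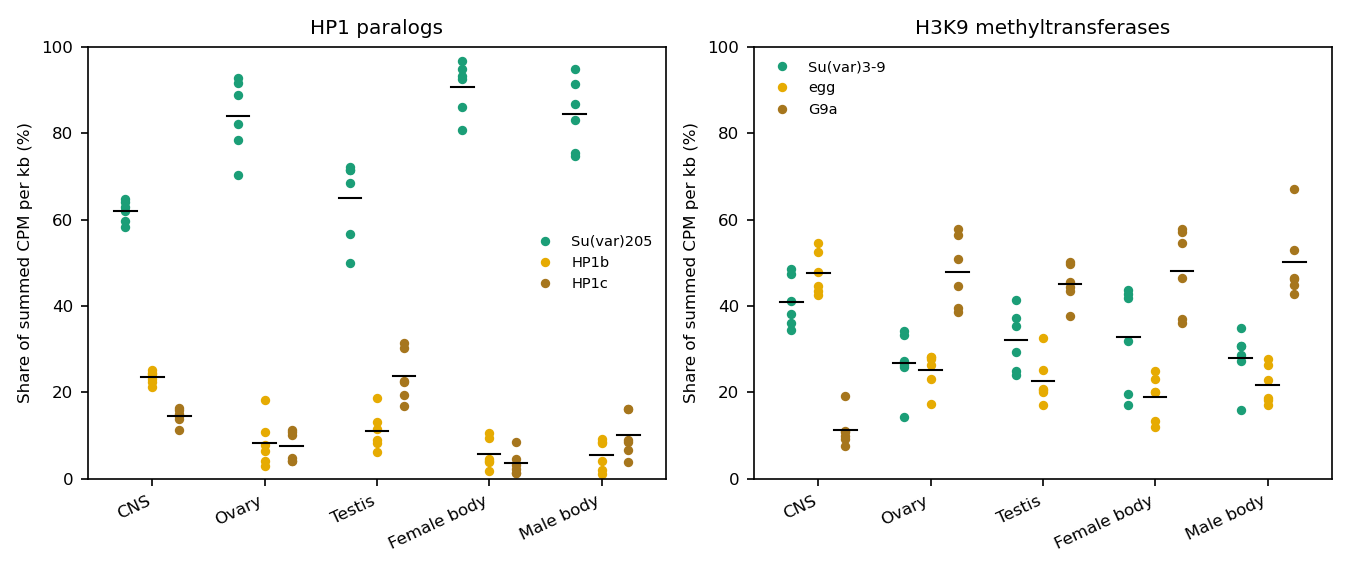
Share of each gene in the summed CPM per kilobase of exon of its family, in percent (vertical axis, from 0 to 100), by tissue. Points are libraries and black lines means of 6. On the left are the HP1 paralogs Su(var)205, HP1b and HP1c alone, where Su(var)205 holds 62.0% in the CNS. On the right are the 3 methyltransferases of H3 lysine 9, where G9a holds 11.3% in the CNS and 48.0% in ovaries.

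HP6 (FBgn0031613, arm 2L), also called Umbrea, is a young member of the family that arose from a copy of HP1b. Its RNA lay mainly in the male tissues. Its levels ranged from 14.9 to 28.7 CPM in the 6 testis libraries (median 20.5) and from 3.97 to 9.61 CPM in male bodies (median 5.70). In total it had 1141 counts in testes and 206 in male bodies, but 3 in ovaries, all in 1 library, 1 in female bodies and 0 in the CNS. Taken over all libraries of a tissue, the testis level was 3.30 times that of male bodies (95% exact counting interval 2.85 to 3.85) and 524 times that of ovaries (179 to 2546). Against the limit of 3 counts over the 6 CNS libraries it was at least 486-fold higher. These intervals and limits cover counting error only. HP6 was called higher in testes than in male bodies (log2 1.82 ± 0.34 SE, edgeR adjusted p = 0.000239).

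HP4 and HP5 are HP1-interacting proteins. HP4 (FBgn0035829) ranged from 68.4 to 90.6 CPM in the CNS, from 25.7 to 65.3 CPM in ovaries and from 8.48 to 30.1 CPM in female bodies. HP5 (FBgn0030301, on the X) ranged from 69.2 to 161 CPM in ovaries (median 94.2), from 2.99 to 9.27 CPM in testes (median 6.54), from 33.2 to 89.6 CPM in female bodies and from 16.4 to 42.1 CPM in male bodies (median 19.2). All testis libraries lay below all others. HP5 was 16.6-fold higher in ovaries than in testes (log2 4.06 ± 0.26 SE, edgeR adjusted p = 6.23e-12) and 3.45-fold lower in testes than in male bodies (log2 -1.79 ± 0.25, adjusted p = 2.07e-06).

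Of the methyltransferases of H3 lysine 9, G9a was the highest in ovaries and the lowest in the CNS. G9a (FBgn0040372, on the X), a methyltransferase of H3 lysine 9 that acts mainly in euchromatin, ranged from 30.3 to 58.5 CPM in the CNS (median 35), from 187 to 385 CPM in ovaries (median 267), from 70.8 to 93.1 CPM in testes (median 81.8), from 64.9 to 156 CPM in female bodies (median 125) and from 60 to 93.4 CPM in male bodies (median 76.3). Every CNS library was below all others. G9a was 6.91-fold lower in the CNS than in ovaries (log2 -2.79 ± 0.22 SE, edgeR adjusted p = 2.44e-10) and 3.06-fold lower than in female bodies (log2 -1.61 ± 0.21, adjusted p = 6.24e-07). Eggless (egg, FBgn0086908, arm 2R), the SETDB1 enzyme, which silences genes and transposons in the germ line, ranged from 70.9 to 110 CPM in the CNS, from 45.5 to 101 CPM in ovaries and from 18.6 to 34.1 CPM in female bodies. CNS and ovary libraries overlapped, and both lay above all body libraries. It was 3.02-fold higher in ovaries than in female bodies (log2 1.59 ± 0.23 SE, edgeR adjusted p = 3.78e-06). Its cofactor windei (wde) was likewise highest in the CNS and next in ovaries, with 156 to 198 CPM in the CNS, 86.6 to 216 CPM in ovaries and 36 to 56.4 CPM in female bodies. Of the exon bases of egg, 16% overlap a non-coding gene on the opposite strand.

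Su(var)3-9 (FBgn0263755), the methyltransferase of pericentric heterochromatin, ranged from 36 to 73.1 CPM in the CNS (median 47.8), from 31.2 to 53.5 CPM in ovaries (median 51.7), from 15.4 to 25.6 CPM in testes (median 17.7) and from 13.4 to 39.6 CPM in female bodies (median 27.5). It shares 14.8% of its exon bases with eIF2gamma on the same strand, so its own reads are uncertain. Per kilobase, egg made up 47.7% and G9a 11.3% of the 3 methyltransferases in the CNS, against 25.1% and 48.0% in ovaries. Both shares differed between CNS and ovaries (exact p = 0.00216, adjusted 0.00472 each, by 22.5 and -36.7 percentage points), while between ovaries and testes G9a differed by 2.80 points (exact p = 0.444) and egg by 2.38 points (exact p = 0.416).

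Among other histone-modifying enzymes, Kdm4A, JIL-1 and Su(var)3-3 had every ovary library above every CNS library. Kdm4A (FBgn0033233, arm 2R), a demethylase of H3 lysine 9 and lysine 36, ranged from 23.1 to 28.4 CPM in the CNS (median 24.7), from 103 to 141 CPM in ovaries (median 114), from 78.6 to 101 CPM in testes (median 91.7), from 52.1 to 109 CPM in female bodies (median 75.7) and from 30.5 to 49.9 CPM in male bodies (median 37.6). The CNS libraries lay below all others. It was 4.68-fold lower in the CNS than in ovaries (log2 -2.23 ± 0.18 SE, edgeR adjusted p = 5.1e-10) and 2.41-fold higher in testes than in male bodies (log2 1.27 ± 0.18, adjusted p = 2e-06). Its paralog Kdm4B was not lower in the CNS, with 190 to 264 CPM against 89.9 to 237 CPM in ovaries, but 84.8% of its exon bases lie in other genes, so its count is uncertain. JIL-1 (FBgn0020412, arm 3L), the kinase of H3 serine 10 that holds back the spread of heterochromatin, ranged from 110 to 127 CPM in the CNS (median 124) and from 218 to 454 CPM in ovaries (median 354). It was 2.87-fold lower in the CNS than in ovaries (log2 -1.52 ± 0.19 SE, edgeR adjusted p = 3.57e-07) and 2.26-fold lower than in female bodies (log2 -1.18 ± 0.19, adjusted p = 9.34e-06). Su(var)3-3, the H3 lysine 4 demethylase LSD1, ranged from 30.2 to 38.2 CPM in the CNS, from 52.7 to 77.0 CPM in ovaries, from 18.4 to 23.7 CPM in testes and from 10.4 to 17.7 CPM in male bodies.

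Histone deacetylase HDAC1 (FBgn0015805, arm 3L, also called Rpd3) was among the genes with the widest range. It ranged from 217 to 306 CPM in the CNS (median 242), from 67.8 to 174 CPM in ovaries (median 110), from 11.6 to 34.5 CPM in testes (median 16.5), from 20.8 to 47.2 CPM in female bodies (median 31.9) and from 11.1 to 25.1 CPM in male bodies (median 16.8). CNS libraries lay above ovary libraries, and both above all others. The CNS was 7.62-fold above female bodies (log2 2.93 ± 0.28 SE, edgeR adjusted p = 7.94e-09) and 2.33-fold above ovaries (log2 1.22 ± 0.26, adjusted p = 0.0004), and ovaries were 6.01-fold above testes (log2 2.59 ± 0.28, adjusted p = 2.17e-08). CoRest, the partner of LSD1 in deacetylase complexes, ranged only from 108 to 131 CPM in the CNS, from 89.1 to 130 CPM in ovaries and from 40.7 to 45.2 CPM in testes. The deacetylase Sir2, named Sirt1 in current annotation, was lower in every CNS library than in any ovary library, with 75.9 to 90.0 CPM in the CNS, 168 to 242 CPM in ovaries, 40.5 to 54.0 CPM in testes and 79.0 to 120 CPM in male bodies. It was 2.07-fold lower in testes than in male bodies (log2 -1.05 ± 0.16 SE, edgeR adjusted p = 8.96e-06), and its log2 difference was -0.16 without the mitochondrially encoded genes.

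HP1-binding and variegation genes of other kinds were mostly highest in ovaries. Su(var)3-7, a zinc finger protein that binds HP1a, ranged from 118 to 158 CPM in the CNS and from 162 to 374 CPM in ovaries. Su(var)2-HP2, an HP1a partner, ranged from 128 to 162 CPM in the CNS and from 179 to 403 CPM in ovaries. In both genes the ovary libraries lay above all CNS libraries. Su(var)2-10, a SUMO ligase of the PIAS family, had 116 to 130 CPM in the CNS, 226 to 317 CPM in ovaries and 120 to 216 CPM in testes. ADD1, an HP1a partner related to ATRX, had 103 to 240 CPM in ovaries and 36.5 to 99.4 CPM in female bodies, a 2.75-fold difference (log2 1.46 ± 0.22 SE, edgeR adjusted p = 6.69e-06). XNP, the ATRX remodeller, had 211 to 267 CPM in the CNS, 177 to 259 CPM in ovaries and 76.2 to 135 CPM in female bodies. E(var)3-9 (FBgn0260243, arm 3R), a zinc finger protein found as an enhancer of variegation, ranged from 29.0 to 38.7 CPM in the CNS, from 80.6 to 107 CPM in ovaries (median 92.8), from 7.16 to 12.2 CPM in testes (median 9.80), from 36.6 to 74.1 CPM in female bodies (median 59.8) and from 10.9 to 14.0 CPM in male bodies (median 12). It was 9.56-fold higher in ovaries than in testes (log2 3.26 ± 0.17 SE, edgeR adjusted p = 2.31e-13) and 4.63-fold higher in female than in male bodies (log2 2.21 ± 0.17, adjusted p = 1.37e-10). Of mod(mdg4), a BTB protein with many spliced forms, 58.1% of the exon bases lie in other genes. Its log2 difference between testes and male bodies, -0.37 with TMM factors, was 0.04 with RLE factors.

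Of the assembly and remodelling factors, Caf1-180 had the widest span. It encodes the large subunit of CAF-1, which deposits histones behind replication forks (FBgn0030054, on the X). It ranged from 39.0 to 61.6 CPM in the CNS (median 46.9), from 58.9 to 167 CPM in ovaries (median 133), from 0.577 to 4.13 CPM in testes (median 1.92), from 16 to 27.9 CPM in female bodies (median 21.3) and from 0.727 to 5.30 CPM in male bodies (median 2.37). All libraries of both male tissues lay below all female ones. It was 58.8-fold higher in ovaries than in testes (log2 5.88 ± 0.41 SE, edgeR adjusted p = 1.57e-11), 5.40-fold higher in ovaries than in female bodies (log2 2.43 ± 0.33, adjusted p = 2.52e-06) and 9.30-fold higher in female than in male bodies (log2 3.22 ± 0.39, adjusted p = 2.06e-07).

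The second subunit of CAF-1, Caf1-105 (FBgn0033526, arm 2R), did not run in parallel. It ranged from 13.1 to 20.7 CPM in the CNS (median 16.4), from 73.2 to 130 CPM in ovaries (median 96.6), from 28.4 to 41.2 CPM in testes (median 36.1) and from 32.9 to 195 CPM in female bodies (median 70.9). It was 5.88-fold lower in the CNS than in ovaries (log2 -2.56 ± 0.27 SE, edgeR adjusted p = 3.39e-08) and 4.65-fold lower than in female bodies (log2 -2.22 ± 0.27, adjusted p = 2.35e-07). Caf1-180 was 1.15 higher on the log2 scale in the CNS than in female bodies (± 0.32 SE, adjusted p = 0.0035), so the subunits were called in opposite directions there. Acf, the large subunit of the ACF and CHRAC remodellers, ranged from 136 to 171 CPM in the CNS, from 199 to 327 CPM in ovaries and from 48.7 to 74.9 CPM in testes. Their ATPase Iswi had 185 to 250 CPM in the CNS, 105 to 185 CPM in ovaries and 149 to 213 CPM in testes. Iswi was 2.46-fold higher in testes than in male bodies (log2 1.30 ± 0.20 SE, edgeR adjusted p = 6.86e-06). The histone variant gene His2Av, with 165 to 232 CPM in the CNS, 81.6 to 137 CPM in ovaries, 18.9 to 31.5 CPM in testes and 10.2 to 17.0 CPM in male bodies, was like HDAC1 highest in the CNS.

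**Figure D3:**
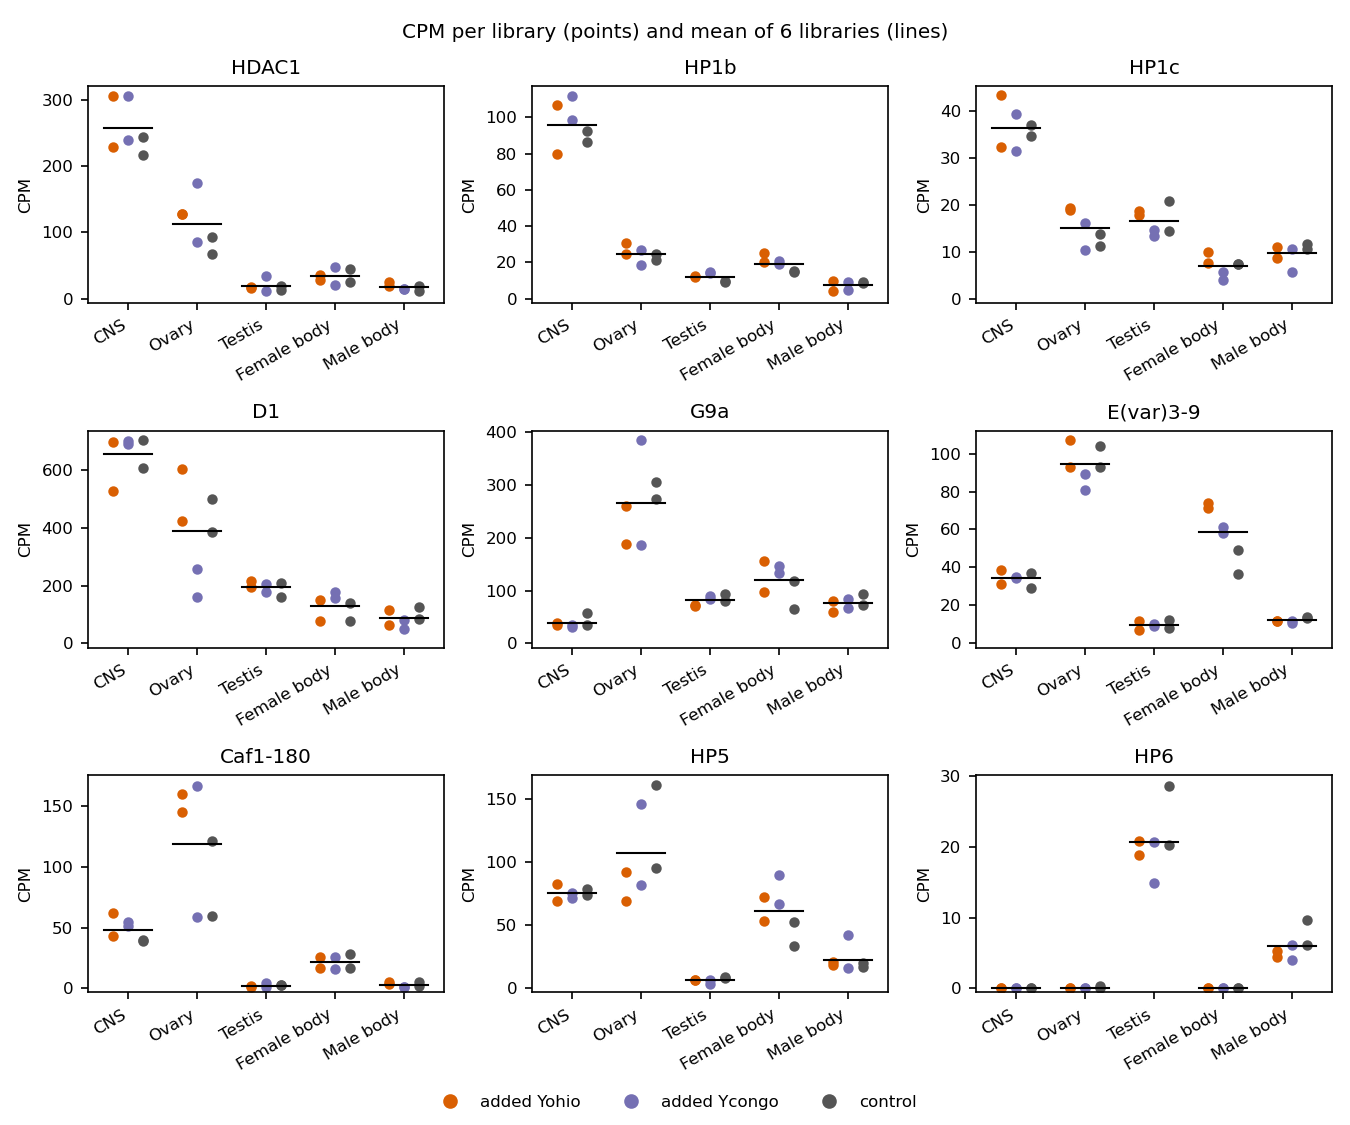
CPM per library (points, coloured by added Yohio, added Ycongo and control) and mean of 6 libraries (lines) of 9 genes in 5 tissues; each panel has its own vertical axis from 0. HDAC1, HP1b, HP1c and D1 are highest in the CNS, G9a, E(var)3-9, Caf1-180 and HP5 in ovaries, and HP6 in testes, where it ranges from 14.9 to 28.7 CPM.

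The genes of the lamina and of nuclear structure had different orders over the tissues. Lam (FBgn0002525, arm 2L), the B-type lamin present in nearly all nuclei, ranged from 505 to 648 CPM in the CNS (median 547), from 186 to 299 CPM in ovaries (median 230), from 136 to 223 CPM in testes (median 172) and from 46.5 to 115 CPM in male bodies (median 74.0). It was 2.39-fold higher in the CNS than in ovaries (log2 1.26 ± 0.21 SE, edgeR adjusted p = 2.3e-05) and 2.35-fold higher in testes than in male bodies (log2 1.23 ± 0.21, adjusted p = 2.6e-05). LBR (FBgn0034657, arm 2R), the lamin B receptor of the inner nuclear membrane, ranged from 65.6 to 95.5 CPM in the CNS (median 71.7), from 72.5 to 154 CPM in ovaries (median 108), from 15.4 to 25.9 CPM in testes (median 17.8), from 40.4 to 196 CPM in female bodies (median 96.6) and from 8.40 to 14.0 CPM in male bodies (median 11.1). It was 8.69-fold higher in female than in male bodies (log2 3.12 ± 0.23 SE, edgeR adjusted p = 1.26e-10). Parp, the poly(ADP-ribose) polymerase, ranged from 80.8 to 116 CPM in the CNS, from 89 to 225 CPM in ovaries, from 87.9 to 130 CPM in testes, from 59.9 to 138 CPM in female bodies and from 44.7 to 78.1 CPM in male bodies, where its mean was lowest.

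Among the proteins that bind satellite DNA or centromeric chromatin, D1 was the most abundant. D1 (FBgn0000412, arm 3R), an AT-hook protein that binds AT-rich satellites, ranged from 529 to 705 CPM in the CNS (median 695), from 161 to 605 CPM in ovaries (median 406), from 161 to 218 CPM in testes (median 200), from 78.9 to 177 CPM in female bodies (median 146) and from 51.4 to 125 CPM in male bodies (median 82.3). It was 5.10-fold higher in the CNS than in female bodies (log2 2.35 ± 0.23 SE, edgeR adjusted p = 1.02e-08). Per kilobase of exon it was the highest of the 36 genes in the CNS and in testes, with means of 349 and 104 CPM per kilobase. Proliferation disrupter (prod), which binds another AT-rich satellite, had 42.5 to 63.5 CPM in the CNS, 24.8 to 60.9 CPM in ovaries and 14.0 to 23.3 CPM in testes. Hmr and Lhr, known as hybrid incompatibility genes whose proteins act together, had differences of opposite sign between the gonads. Hmr (FBgn0001206, on the X) had 32.3 to 52.1 CPM in ovaries and 12.4 to 20.5 CPM in testes, 1.38 higher on the log2 scale in ovaries (± 0.16 SE, edgeR adjusted p = 6.3e-08). Lhr (FBgn0034217, arm 2R) had 8.12 to 17.6 CPM in ovaries and 17.6 to 25.9 CPM in testes, a log2 difference of -0.89 (± 0.40 SE, edgeR adjusted p = 0.0438). This call was lost with the control genotypes alone (adjusted p = 0.27) and in 8 of the 12 fits that left out 1 ovary or testis library, with adjusted p up to 0.111.

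Further differences between tissues were without overlap. HDAC1 was 3.27-fold higher in ovaries than in female bodies (log2 1.71 ± 0.27 SE, edgeR adjusted p = 1.34e-05), Hmr 2.23-fold (1.16 ± 0.16, adjusted p = 2.35e-06), HP1c 2.15-fold, XNP 2.12-fold and E(var)3-9 1.65-fold. Su(var)3-3 was 1.54-fold and His2Av 1.57-fold higher in testes than in male bodies (edgeR adjusted p = 0.0017 and 0.0109). In ovaries compared with testes, Su(var)2-10 was 1.72-fold higher, XNP 1.74-fold and Su(var)2-HP2 1.96-fold. Acf was 2.84-fold higher in female bodies, with 69.8 to 166 CPM, than in male bodies, with 31.8 to 48.8 CPM (log2 1.51 ± 0.16 SE, edgeR adjusted p = 3.46e-08), HP1b 2.48-fold, Hmr 2.39-fold and Kdm4A 2.01-fold.

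Other genes of these pathways gave the following counts in ovaries compared with testes, where 29.6% of all genes were higher and 49.5% lower. Of 13 other HP1 family and H3K9 or H4K20 methylation genes, 10 were higher and 2 lower, among them Rif1, a replication timing factor (log2 5.87 ± 0.24 SE, edgeR adjusted p = 6.05e-15). All 16 other assembly and remodelling genes were higher, with a median of 1.66, and so were 15 of 17 Polycomb group genes and 8 of 10 lamina and nuclear envelope genes, with none lower in either list. Of 6 telomere cap genes, 2 were higher and 3 lower. HipHop, a cap protein, was among the higher (log2 4.15 ± 0.37 SE, edgeR adjusted p = 1.23e-09) and its testis paralog ms(3)K81 among the lower (log2 -6.22 ± 0.66, adjusted p = 4.01e-08). In the CNS compared with ovaries, where 29.0% of all genes were higher and 27.9% lower, 1 of the 13 other HP1 family and methylation genes was higher and 8 lower, 3 and 7 of the assembly and remodelling genes, 5 and 11 of the Polycomb group genes, 1 and 8 of the lamina genes, and 2 and 2 of the telomere cap genes. The germline HP1 paralog rhi, which marks the source loci of small silencing RNAs, was among the lower.

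No gene of this group passed the threshold with an added Y chromosome. In each of the 15 comparisons of an added Y with its control or of the 2 added Y chromosomes with each other, 0 of the 35 or 36 genes tested were called by edgeR at an adjusted p under 0.05. Of all genes, 0% were called in each comparison of bodies and testes. In ovaries 0.0113% were called with Yohio, 0.283% with Ycongo and 0.0113% between the 2 added Y chromosomes, and in the CNS 0.0403%, 0.0101% and 0.0302%. The comparisons within a tissue share libraries. With 2 libraries a group, the smallest p that exact permutation of 1 gene's values can give is 0.333. DESeq2 called 1 gene in 1 of the 15 comparisons, D1 in ovaries of XXYcongo compared with XXYohio females. In the authors' deposited tables, which hold 10 comparisons of an added Y with its control, 0 of these genes had an adjusted p under 0.05. For Yohio in male bodies JIL-1 alone has an adjusted p there, so that comparison says nothing on the others. Most genes also lack one for Ycongo in male bodies, and several for Yohio in female bodies.

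**Figure D4:**
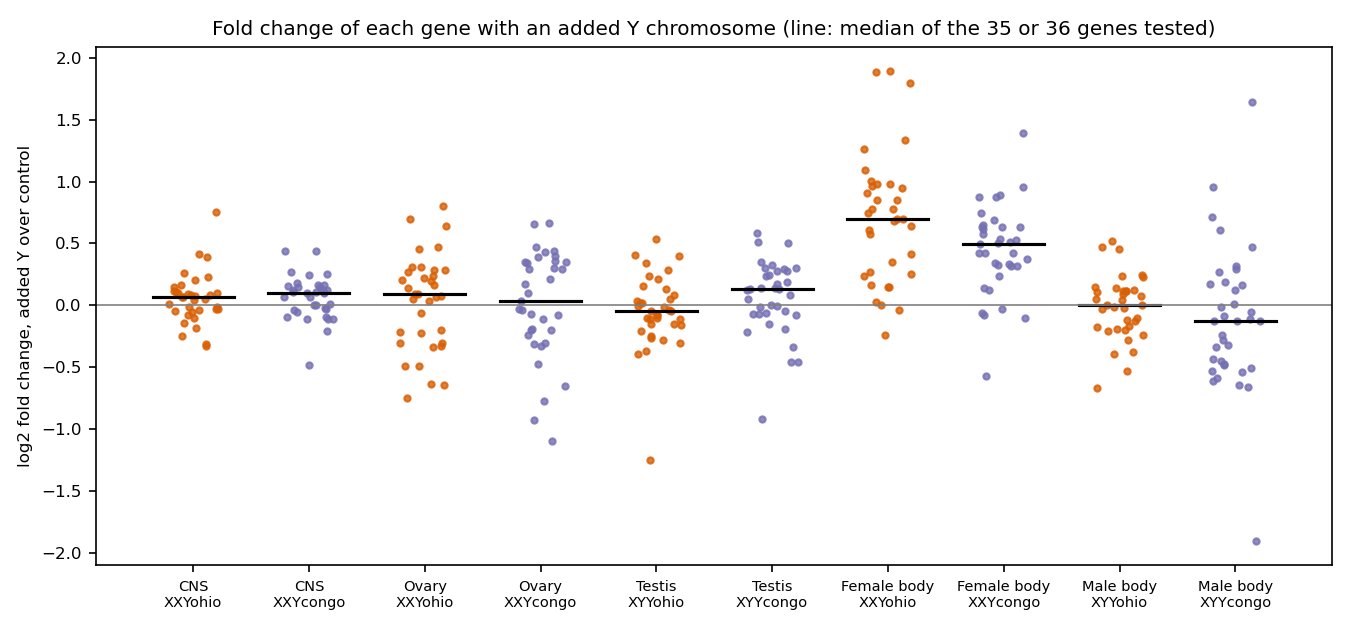
Fitted log2 fold change (vertical axis) of each gene tested, 35 or 36 per column, with an added Yohio or Ycongo over the control of the tissue. Points are genes and black lines medians; in female bodies the medians are 0.70 with Yohio and 0.50 with Ycongo, and in the other tissues they lie between -0.12 and 0.13.

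Female bodies were the tissue in which the medians of the genes stood farthest above the control. With Yohio, 32 of 35 genes had a fold change above 1, with a median log2 fold change of 0.70, against -0.01 for all genes. Both XXYohio libraries lay above both XX libraries for 21 of 35 genes and below for 0, where 16% of all genes were so above and 24% below. With Ycongo, 30 of 35 had a fold change above 1, with a median of 0.50. Of these 35, 19 lay above XX without overlap and 1 below, where 15.3% and 20.4% of all genes did. The share of all genes with a fold change above 1 was not counted for either added Y. At an unadjusted p under 0.05 there were 9 genes with Yohio, where 9.35% of all genes passed that level, and 1 with Ycongo, where 4.27% did. Caf1-105 had 112 and 195 CPM in XXYohio bodies, against 32.9 and 55.4 CPM in XX bodies (log2 1.88 ± 0.50 SE, edgeR adjusted p = 0.519). LBR had 196 and 111 CPM in XXYohio bodies, against 54.0 and 40.4 CPM in XX bodies (log2 1.8 ± 0.50 SE, edgeR adjusted p = 0.519). In XXYcongo bodies LBR had 82.0 and 160 CPM (log2 1.40 ± 0.49 SE over XX, edgeR adjusted p = 0.906). The groups did not overlap in these comparisons.

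Su(var)205 had 358 and 740 CPM in XXYohio bodies, 119 and 347 CPM in XXYcongo bodies and 77.5 and 235 CPM in XX bodies. XXYohio lay above XX without overlap (log2 1.90 ± 0.73 SE, edgeR adjusted p = 0.519), whereas XXYcongo overlapped with XX. Lam had 277 and 224 CPM in XXYohio bodies, against 108 and 104 CPM in XX bodies, a log2 difference of 1.34 (± 0.45 SE, edgeR adjusted p = 0.519). HP5, second by p with Ycongo, had 89.6 and 66.8 CPM in XXYcongo bodies, against 52.8 and 33.2 CPM in XX bodies (log2 0.88 ± 0.40 SE, edgeR adjusted p = 0.906). Between the 2 added Y chromosomes, Caf1-105 had 47.5 and 86.5 CPM in XXYcongo bodies, against 112 and 195 CPM in XXYohio bodies (log2 -1.25 ± 0.49 SE, edgeR adjusted p = 1), where 1.31% of all genes were at an unadjusted p under 0.05. Su(var)3-3 had 38.3 and 34.7 CPM in XXYcongo bodies, against 46.1 and 72.3 CPM in XXYohio bodies (log2 -0.77 ± 0.37 SE, edgeR adjusted p = 1). The authors' deposited table for Yohio in female bodies gives LBR a log2 fold change of 1.35 and Caf1-105 one of 1.38, each with a DESeq2 adjusted p of 0.0787. These come from another method than the edgeR values above, so the sizes are not directly comparable. Without the filter on low counts, edgeR called Caf1-105 with Yohio (adjusted p = 0.0387).

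Markers of several cell types differed between the same libraries. The 36 genes summed to 3983 and 4119 CPM in XXYohio, 3335 and 3408 CPM in XXYcongo and 2610 and 2114 CPM in XX bodies. Polycomb group genes summed to 1045 to 1302, 1122 to 1293 and 643 to 1036 CPM in the same order. Other lamina and nuclear envelope genes summed to 929 to 983, 888 to 935 and 720 to 885 CPM. Sums of the other HP1 family and methylation genes, the assembly and remodelling genes and the telomere cap genes overlapped with XX. The 13 muscle genes, all with counts, summed to 3845 and 4982 CPM in XXYohio, 7638 and 6743 CPM in XXYcongo and 10962 and 12870 CPM in XX bodies. The 12 photoreceptor genes summed to 819 to 944 CPM in XXYohio, 937 to 1093 CPM in XXYcongo and 1619 to 2055 CPM in XX bodies. In the other direction, the 14 female germline genes summed to 5304 to 8979 CPM in XXYohio, 7827 to 8022 CPM in XXYcongo and 3370 to 5654 CPM in XX bodies. The 23 cell cycle genes summed to 6955 to 9658 CPM, 8563 to 11328 CPM and 3477 to 8171 CPM in XXYohio, XXYcongo and XX bodies. Muscle and photoreceptor sums did not overlap between either added Y group and XX, while germline and cell cycle sums did between XXYohio and XX. The 13 follicle cell and eggshell genes summed to 1827 to 4763 CPM in XXYohio, 2410 to 2603 CPM in XXYcongo and 1634 to 1663 CPM in XX bodies, so both added Y groups lay above XX without overlap. The glia genes summed to 323 to 375 CPM, 446 to 488 CPM and 546 to 626 CPM in XXYohio, XXYcongo and XX bodies, and the gut genes to 937 to 1390 CPM, 937 to 1079 CPM and 1400 to 2148 CPM, in both lists without overlap with XX. The part of tissue make-up in the values of the heterochromatin genes was not tested.

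**Figure D5:**
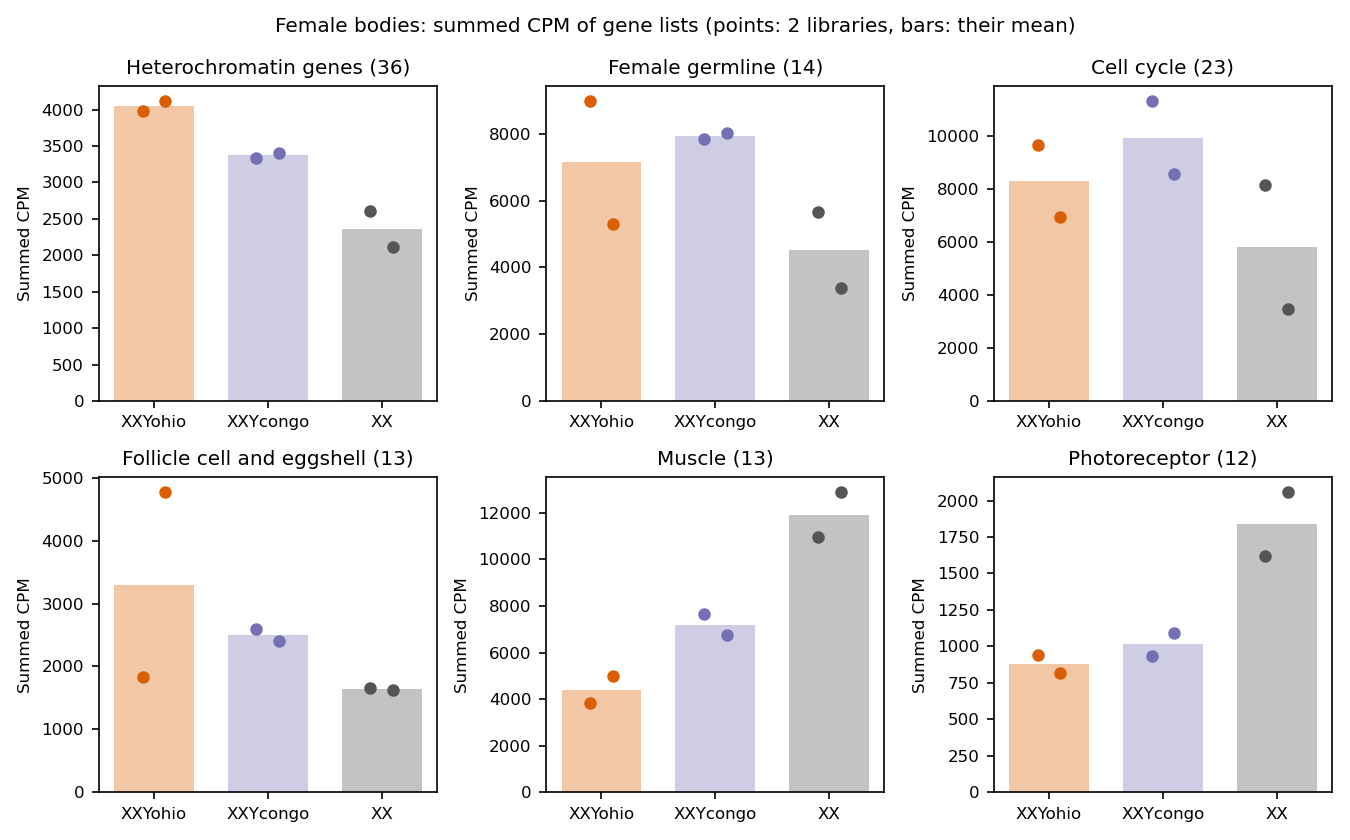
Summed CPM (vertical axes, from 0) of the 36 heterochromatin genes and of 5 marker lists in female bodies of XXYohio, XXYcongo and XX flies; points are the 2 libraries of a group and bars their mean. The heterochromatin genes sum to 3983 and 4119 CPM in XXYohio and to 2610 and 2114 CPM in XX bodies, and muscle genes to 3845 and 4982 CPM and to 10962 and 12870 CPM.

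In ovaries the medians were 0.09 with Yohio and 0.03 with Ycongo, and 2 genes for satellite-binding proteins stood lowest with Ycongo. D1 had 161 and 257 CPM in XXYcongo, 605 and 426 CPM in XXYohio and 386 and 500 CPM in XX ovaries. Its log2 difference was -1.09 from XX (± 0.34 SE, edgeR adjusted p = 0.274) and -1.36 from XXYohio (± 0.34, adjusted p = 0.463). With DESeq2 the difference from XXYohio had an adjusted p of 0.0256. Without XXYcongo replicate 2 the edgeR adjusted p was 0.0339, and over all alternatives tried it ranged from 0.0126 to 0.999. Prod had 24.8 and 30.4 CPM in XXYcongo, 48.9 and 60.9 CPM in XXYohio and 46.1 and 58.9 CPM in XX ovaries (log2 -0.93 ± 0.28 SE from XX, edgeR adjusted p = 0.262). Prod differed from XXYohio by -1.02 (± 0.28 SE, edgeR adjusted p = 0.530). Neither gene overlapped between XXYcongo and the other groups, but the share of all genes so separated in ovaries is not given here. Of Hmr and Lhr, described with them above, Hmr lay higher in XXYcongo (52.1 and 47.3 CPM) than in XX ovaries (34.5 and 42.2 CPM). Lhr overlapped between these 2 groups. At an unadjusted p under 0.05 were 3 of 35 genes for Ycongo, where 10.9% of all genes were, and 0 for Yohio, where 7.02% were. Between the added Y chromosomes there were 2, where 8.15% of all genes were. HDAC1, with the smallest p for Yohio, had 127 and 128 CPM in XXYohio, against 67.8 and 93.6 CPM in XX ovaries (log2 0.70 ± 0.32 SE, edgeR adjusted p = 0.705). Parp had 108 and 155 CPM in XXYohio, against 225 and 190 CPM in XX ovaries (log2 -0.64 ± 0.33 SE, edgeR adjusted p = 0.706). The slopes on gene length given for the ovary libraries apply to these values as well; D1 has 1877 and prod 1597 bases of merged exons, and the part of length was not tested.

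The larval CNS had the smallest biological coefficient of variation of the 5 tissues, 0.239 against 0.406 in female bodies, with medians of 0.06 for Yohio and 0.10 for Ycongo. Su(var)3-9 had 73.1 and 47.9 CPM in XXYohio, 48.5 and 47.8 CPM in XXYcongo and 36.2 and 36 CPM in XX CNS. Both added Y groups lay above XX, and XXYohio replicate 1 stood apart from its fellow. The share of all genes so separated in the CNS is not given here. The log2 difference from XX was 0.76 for XXYohio (± 0.20 SE, edgeR adjusted p = 0.718) and 0.44 for XXYcongo (± 0.20, adjusted p = 0.855). Without the filter on low counts, the edgeR adjusted p for XXYohio was 0.0233. Caf1-180 had 61.6 and 42.9 CPM in XXYohio, 54.8 and 50.9 CPM in XXYcongo and 40.1 and 39.0 CPM in XX CNS. Its log2 difference was 0.42 for XXYohio (± 0.19 SE, edgeR adjusted p = 0.840) and 0.44 for XXYcongo (± 0.19, adjusted p = 0.855). At an unadjusted p under 0.05 was 1 gene in each, where 5.88% of all genes were with Yohio and 5.16% with Ycongo. Between the added Y chromosomes, Parp had 99.9 and 116 CPM in XXYcongo, against 80.8 and 89.3 CPM in XXYohio CNS (log2 0.35 ± 0.17 SE, edgeR adjusted p = 0.999), and Lhr 15.1 and 16 CPM against 13.5 and 9.11 CPM (adjusted p = 0.999). In that comparison 0 genes were at an unadjusted p under 0.05, where 3.88% of all genes were.

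In males the medians lay close to those of all genes. They were 0.00 with Yohio and -0.12 with Ycongo in male bodies, and -0.04 and 0.13 in testes. In male bodies at an unadjusted p under 0.05 were 0 genes for Yohio, where 0.466% of all genes were, and 2 for Ycongo, where 7.39% were. Lhr had 6.72 and 20.4 CPM in XYYcongo, against 5.69 and 3.15 CPM in XY bodies (log2 1.64 ± 0.68 SE, edgeR adjusted p = 0.656). Caf1-180 had 0.727 and 1.04 CPM in XYYcongo, against 5.30 and 1.65 CPM in XY bodies (log2 -1.91 ± 0.80 SE, edgeR adjusted p = 0.656). Both genes were low in male bodies. XYYcongo and XY did not overlap in either, but the share of all genes so separated is not given here. The XYYcongo library with 20.4 CPM of Lhr was the one with 40.1% mitochondrial counts, whose part in the value was not tested. Caf1-180 had 5.01 and 3.09 CPM in XYYohio bodies, from which XYYcongo differed by -2.15 (± 0.79 SE, edgeR adjusted p = 0.693), and HP4 had 8.54 and 6.56 CPM in XYYcongo, against 7.90 and 22.3 CPM in XYYohio bodies (adjusted p = 0.696). There 1 gene was at an unadjusted p under 0.05, where 6.64% of all genes were. HP6 had 4.43 and 5.31 CPM in XYYohio, against 6.08 and 9.61 CPM in XY bodies (edgeR adjusted p = 1), and HDAC1 25.1 and 18.7 CPM against 19.6 and 11.1 CPM (adjusted p = 1). In testes, 2 genes were at that level for Ycongo, where 2.28% of all genes were, and 0 for Yohio, where 2.90% were. Kdm4B had 211 and 210 CPM in XYYcongo, against 138 and 156 CPM in XY testes (log2 0.51 ± 0.18 SE, edgeR adjusted p = 1). Parp had 92.9 and 87.9 CPM in XYYcongo, against 118 and 130 CPM in XY testes (log2 -0.46 ± 0.19 SE, edgeR adjusted p = 1). Su(var)3-9 had 25.6 and 19.3 CPM in XYYohio, against 15.5 and 15.4 CPM in XY testes (edgeR adjusted p = 0.974), and Kdm4A 83.5 and 78.6 CPM against 95.3 and 101 CPM (adjusted p = 0.974). Hmr had 20.5 and 18.2 CPM in XYYcongo, against 15.1 and 12.4 CPM in XYYohio testes (edgeR adjusted p = 0.838), and Kdm4B had 170 and 152 CPM in XYYohio testes, also below XYYcongo (adjusted p = 0.838). There 0 genes were at an unadjusted p under 0.05, where 3.72% of all genes were.

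Over all 5 tissues, with both added Y chromosomes against the controls, 0 of 36 genes were called, where 0.104% of all genes were. The median log2 fold change was 0.10, against -0.03 for all genes. Of the 36 genes, 30 had a fold change above 1, and the share of all genes that did was not counted. Acf had the smallest p (log2 0.26 ± 0.11 SE, edgeR adjusted p = 0.776), and 1 gene was at an unadjusted p under 0.05, where 5.39% of all genes were. After it came LBR (log2 0.30 ± 0.15 SE), mod(mdg4) (0.19 ± 0.09), Caf1-105 (0.30 ± 0.17) and Hmr (0.18 ± 0.11), each with an edgeR adjusted p of at least 0.95. Without female bodies, a comparison chosen after the values were seen, the median was 0.00 and LBR stood at -0.01. The effect of an added Y was also compared between the sexes. In female minus male bodies 0 genes were called, 9 were at an unadjusted p under 0.05, where 8.04% of all genes were, and the median was 0.68, against -0.07 for all genes; Sir2 had the smallest p (log2 1.25 ± 0.35 SE, edgeR adjusted p = 0.547). In ovary minus testis 0 genes were called, 1 was at that level (HP6, which had 3 counts over all ovary libraries), where 5.25% of all genes were, and the median was -0.02.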

How the data were processed

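Poly(A) RNA was sequenced, and per gene counts were deposited for 30 libraries. Reads were handled with Bowtie2, Trim Galore and SAMtools, and fold changes came from DESeq2 1.8.1 in R 3.2.3, as the submitters' processing notes list; for genome build, annotation, counting tool and strand the sources used here give nothing. The authors also deposited tables of log2 fold changes with p-values, per the file headers. Library totals lay between 6026258 and 15363636 counts.

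From the counts, differences were fitted with edgeR 4.0.16 (R 4.3.3) by quasi-likelihood, with TMM factors, filterByExpr at a minimum count of 10 and Benjamini-Hochberg adjustment over all genes tested. Added Y comparisons used 1 fit per tissue (6 libraries, 3 residual degrees of freedom). Tissue, over-all and between-sex comparisons used 1 fit of all 30 libraries in 15 groups (15 residual degrees of freedom). Alternatives were RLE scaling, no filter, DESeq2 1.42.0, a replicate block, control genotypes alone, and leaving out each library. Leaving out mitochondrially encoded genes, and leaving out female bodies, were chosen after seeing the data. The fits were tested on simulated data. Exon lengths and overlaps came from the BDGP6.54 annotation, used for names, chromosome arms and lengths.

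The 37 members and all gene lists were chosen with earlier results of these data known. Named in full were, per tissue comparison, the 4 highest and 4 lowest folds among genes called without overlap, per added Y comparison the 2 genes with the smallest p, and the 5 smallest over all tissues; for other genes, up to 4 per list. Sequences were not used here.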

Additional observations from a re-analysis of the deposited data

How the results depend on the processing

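Counts of genes called moved by over 1.5 times under few alternatives. Without the filter on low counts, 1 gene was called with Yohio in female bodies, 1 with Yohio in the CNS and 1 between Ycongo and Yohio in ovaries, against 0 in each; DESeq2 also called 1 in that last comparison. RLE scaling left 16 genes called in ovaries compared with female bodies, against 27. In that comparison DESeq2 called 18, the fit without the filter 19 and that without mitochondrially encoded genes 20, which stayed within 1.5 times. Totals can also hide a changed split: in the CNS compared with ovaries, DESeq2 gave 14 higher and 13 lower, against 8 and 16. With the control genotypes alone, 12 were called in testes compared with male bodies, against 26, and 13 in female compared with male bodies, against 28. Leaving out 1 library at a time gave 25 to 29 calls for ovaries compared with female bodies, 24 to 27 for testes compared with male bodies, 27 to 30 for ovaries compared with testes, 26 to 30 for CNS compared with female bodies, 22 to 24 for CNS compared with ovaries and 25 to 27 for female compared with male bodies. It gave 0 to 1 call for Ycongo over XX in ovaries (Su(var)205, without XXYcongo replicate 1), 0 to 2 between Ycongo and Yohio there (D1 and Su(var)205, without XXYcongo replicate 2), and 0 in the other added Y comparisons. The lone library of a group is then assumed to vary like the other groups. Single genes were followed where the main fit gave an unadjusted p under 0.05 or where their p was among the smallest of a comparison. Among these, the sign changed in 12 cases. For mod(mdg4) in testes compared with male bodies the log2 difference was 0.04 with RLE scaling, 0.10 without the filter, 0.05 with DESeq2 and 0.51 without mitochondrially encoded genes, against -0.37. HP1c in female compared with male bodies stood at 0.32 without the filter and 0.45 without mitochondrially encoded genes. Kdm4A in ovaries compared with testes stood at -0.09 with RLE scaling and -0.09 with DESeq2, against 0.37. With control genotypes alone, Sir2 and ADD1 stood at -0.33 and -0.07 in female compared with male bodies. LBR over all tissues stood at -0.01 without female bodies, and the cause of these changes was not tested. HP6 in the added Y effect of ovary minus testis was fitted at 0.38 without XX ovary replicate 1 and -4.18 without XX ovary replicate 2, against -3.19; its 3 ovary counts lie in 1 library, so these fitted values rest on groups at 0 counts and are no measure of size. The summed level of the 36 genes depended on scaling: 5448 CPM in ovaries became 6384 with unscaled totals and 6317 without mitochondrially encoded genes, 5007 in the CNS became 7061 and 6280, 1782 in male bodies became 1250 and 1262, 2582 in testes became 2081 and 3378, and 3262 in female bodies became 4492 without mitochondrially encoded genes. The replicates of different groups share only a number, and deviations of same-numbered libraries correlated between -0.66 and 0.67. With the replicate block, 0 genes were called in each added Y comparison, and 26, 26, 29, 28, 24 and 28 in the tissue comparisons (ovary over female body, testis over male body, ovary over testis, CNS over female body, CNS over ovary, female over male body). The lower call of Lhr in ovaries compared with testes was not made under the block. Of 3042 values in tissue comparisons, of genes chosen by their p in the main fit, 2786 kept their direction and side of the threshold. In added Y comparisons 732 of 739 did. Of the 3042 values, 2028 came from fits that left out 1 library. Calls gained by genes outside that choice are not counted there. With 2 libraries a group, small differences were not detectable, and large ones could be missed as well. In female bodies Caf1-105 had 112 and 195 CPM with Yohio, against 32.9 and 55.4 CPM in XX, and was not called in the main fit. That fit called 0 of 10459 genes for Yohio over XX.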
